A study of Mus musculus with 6 samples.

Results

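The constitutive proteasome genes were taken as all genes of the deposited table with a symbol of the Psma, Psmb, Psmc or Psmd series followed by a digit. The immunoproteasome genes Psmb8, Psmb9 and Psmb10 and the symbols marked as pseudogenes were left out. The rule found 35 of the 19739 genes in the table, 14 of them 20S core genes and 21 of them counted as 19S regulator genes. All 14 core genes and 17 of the 21 regulator genes encode structural subunits. Of the other regulator genes, 3 (Psmd5, Psmd9 and Psmd10) encode chaperones that help to build the 19S base, and Psmc3ip matched by its symbol alone, since it encodes a factor of meiotic recombination. Psma8 and Psmb11, the germ cell and thymus forms of 2 core subunits, have symbols that fit the rule but were not among the 35 genes found.

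RNA was sequenced from primary mouse mammary luminal cells, the epithelial cells that face the lumen of the duct, of genotype WT and sorted by flow cytometry. All cells had been grown with serum, EGF, FGF2, heparin and the ROCK inhibitor Y-27632 and then deprived of serum for 12 hours. The 3 control libraries had 0 µg/ml EFNA3 and the 3 EFNA3 libraries had 1 µg/ml EFNA3 protein for 24 hours in serum-free medium; EFNA3 is ephrin-A3, a ligand of Eph receptors that cells normally hold on their membrane. The sources used here do not give the age or strain of the mice, the form of the added protein, or whether replicates were separate animals or cultures; p-values therefore reflect the spread among these 6 libraries, which could be technical alone.

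The proteasome is the protease that degrades proteins tagged with ubiquitin. Its 20S core is a barrel of stacked rings: outer rings of alpha subunits gate the entrance, and inner rings of beta subunits hold the catalytic sites inside. The 19S regulator caps the barrel; its base contains ATPases of the Psmc series that unfold the substrate, and its lid removes the ubiquitin chain. Transcription of the subunit genes is known to be raised together by the factor Nfe2l1 when proteasome capacity falls short.

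All 35 genes passed the filter on low values, which left 16394 genes for testing. The deposited values were taken as log2 values, all libraries had 1 common distribution of values, and depth is unknown. Depth therefore sets no stated precision here; the number of libraries does. EFNA3 replicate 1 stood apart from the other libraries: limma's quality weight was 0.199 for it and lay between 1.10 and 2.16 for the others. All 6 luminal markers were expressed, with a summed log2 level of 16.15 to 16.24 in controls and 16.23 to 16.46 with EFNA3. Summed basal markers ran from 16.85 to 16.95 and from 16.94 to 17.01, most of it the keratin Krt14 at 16.32; the other basal markers were Krt5 at 14.93, Oxtr at 13.37, Mylk at 9.16, Acta2 at 7.80 and Cnn1 at 2.04. Fibroblast markers (5 of 6 in the table) summed to 10.75 to 10.79 in controls and 10.63 to 10.78 with EFNA3, endothelial markers (4 of 5) to 8.27 to 8.48 and 8.25 to 8.40, and immune markers (3 of 6) to 7.28 to 7.67 and 7.38 to 7.79. The part of these cell types in the results below was not tested. In bulk RNA, fewer cells of a type and less RNA per cell cannot be told apart.

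The first question was whether proteasome genes differed between cells with and without EFNA3, and whether core and regulator differed alike. The mean of 34 of 35 genes was higher with EFNA3, by small amounts, and core genes differed more than regulator genes. The median log2 difference was 0.25 over the 14 core genes (range 0.17 to 0.53) and 0.18 over the 21 regulator genes (range -0.01 to 0.39). Over all tested genes it was 0.00, and 50.8% had a higher mean with EFNA3. No proteasome gene passed limma's test with Benjamini-Hochberg adjustment over all genes, and the smallest adjusted p was 0.55. That test called 0.0% of all genes.

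At an unadjusted limma p under 0.05, 8 proteasome genes were higher and none was lower, against 3.87% of all genes higher. They were the core genes Psmb3, Psmb5, Psma3, Psma2, Psma4 and Psmb1 and the regulator genes Psmd4 and Psmd7. The count depended on the libraries. Leaving out Control replicate 1, 2 or 3 gave 2, 2 and 3 genes, and leaving out EFNA3 replicate 1, 2 or 3 gave 6, 16 and 19. The share of all tested genes under that p, in either direction, moved as well: it was 6.73% with all libraries, 3.46%, 3.12% and 4.51% with a control left out, and 4.61%, 11% and 15.1% with an EFNA3 library left out. In 20 of the 35 genes, 10 core and 10 regulator, every EFNA3 library lay above every control library, compared with 8.53% of all tested genes.

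Most of the size of these differences came from EFNA3 replicate 1. Averaged over the core genes, the 3 EFNA3 libraries stood 0.57, 0.12 and 0.14 above the control mean on the log2 scale, and the 3 control libraries at 0.04, -0.02 and -0.02. Averaged over the regulator genes, the EFNA3 libraries stood 0.34, 0.07 and 0.09 above the control mean, and the control libraries at 0.01, -0.05 and 0.04. All 3 EFNA3 libraries were thus above all 3 controls in both averages, with EFNA3 replicate 1 well apart from the others. EFNA3 replicate 1 was the highest library for 14 of 14 core and 17 of 21 regulator genes, and Control replicate 2 was the lowest for 24 of 35.

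**Figure D1:**
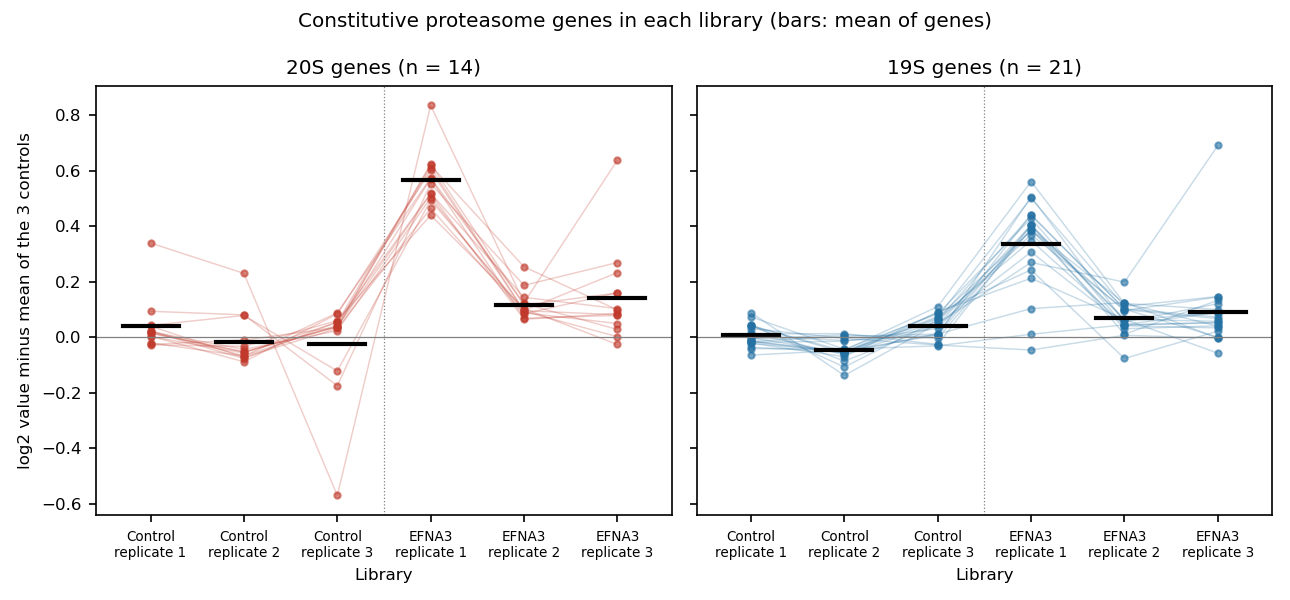
Each point is 1 gene in 1 library, plotted as its log2 value minus the mean of the 3 control libraries (vertical axis) against the library (horizontal axis); thin lines join the points of 1 gene and do not stand for an order, and black bars are the mean of the 14 core genes (left) or 21 regulator genes (right). EFNA3 replicate 1 has the highest bar in both panels, at 0.57 and 0.34, and the other EFNA3 bars lie between 0.07 and 0.14.

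Without EFNA3 replicate 1 the genes that had been higher stayed so, except Psmd5, and the differences were smaller for all genes but Psmd2 and Psmc3ip. The median difference was then 0.11 over core genes and 0.07 over regulator genes, with 34 of 35 higher, beside 49.8% of all genes. Psmd5 went from 0.06 to -0.03 and Psmd1 from -0.01 to 0.00. At an unadjusted limma p under 0.05, 6 proteasome genes were higher, against 2.41% of all genes. Complete separation of the groups, which can only become easier with a library left out, was found for 20 genes, against 10.4% of all genes.

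The difference between core and regulator was compared within each library. The mean difference with EFNA3 was 0.27 over core genes and 0.17 over regulator genes, a gap of 0.11. Library by library, the core mean minus the regulator mean, each as a deviation from the controls, was 0.23, 0.05 and 0.05 in the EFNA3 libraries and 0.03, 0.03 and -0.06 in the controls. EFNA3 replicate 1 thus carried most of the gap, and the other EFNA3 libraries lay only just above the highest controls. Without EFNA3 replicate 1 the gap was 0.05.

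**Figure D2:**
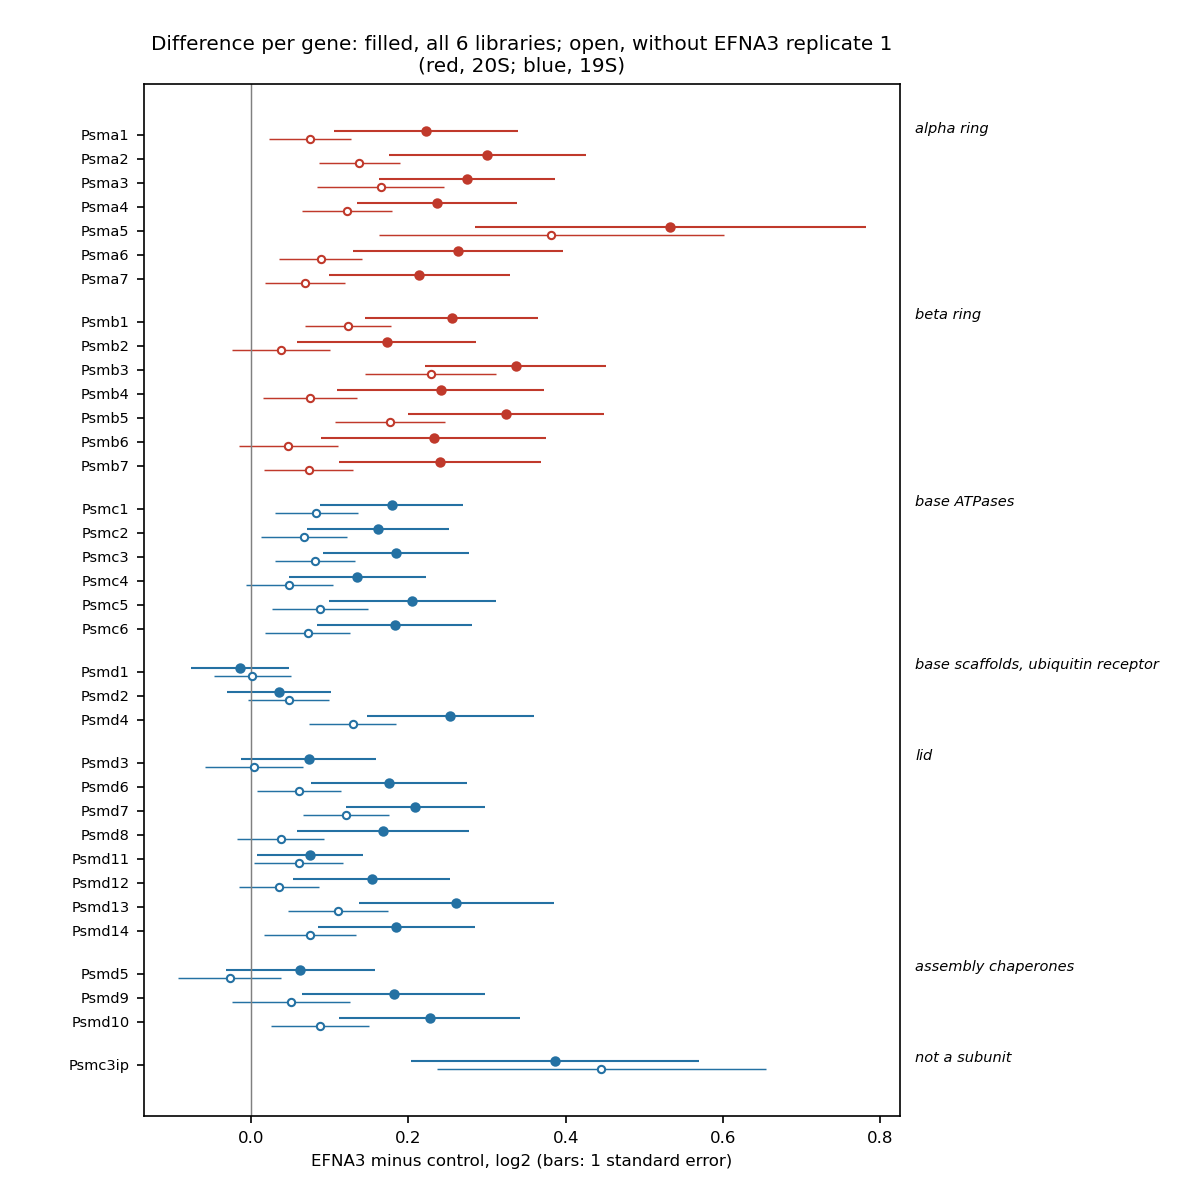
Horizontal axis: mean EFNA3 minus mean control log2 value for each of the 35 genes, with bars of 1 standard error from limma; filled points use all 6 libraries and open points leave out EFNA3 replicate 1, with core genes in red and regulator genes in blue, grouped by role. Filled points of all core genes lie at 0.17 or higher, those of Psmd1 and Psmd2 lie near 0, and open points lie closer to 0 for all genes but Psmd2 and Psmc3ip.

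The catalytic subunits of the core differ in the bonds they cut, and they are described first. Psmb5, which carries the chymotrypsin-like activity, stood at 10.23, 10.17 and 10.28 in controls and at 10.85, 10.48 and 10.33 with EFNA3. The groups did not overlap, although the lowest EFNA3 library lay only just above the highest control. The difference was 0.32 (SE 0.12, limma, 1.25-fold), or 0.18 without EFNA3 replicate 1. Psmb6, with the caspase-like site, stood at 11.31, 11.22 and 11.39 in controls and at 11.91, 11.40 and 11.31 with EFNA3. Here the groups overlapped, since EFNA3 replicate 3 was no higher than Control replicate 1. The difference of 0.23 (SE 0.14) was 0.05 without EFNA3 replicate 1. Psmb7, the trypsin-like subunit, stood at 10.95, 10.88 and 10.97 in controls and at 11.51, 11.01 and 11.02 with EFNA3. All EFNA3 libraries were higher than the controls, and the difference was 0.24 (SE 0.13), or 0.07 without EFNA3 replicate 1. Psmb7 overlaps Nek6 on the opposite strand over 34.9% of its transcript.

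Promoter sequences of 4 genes are shown as examples of the 2 motif classes searched below. Psmb5 and Psmb6, the catalytic genes with a promoter entry, hold TGACNNNGC. Psmb3 and Psmd14, a core and a regulator gene, hold CCAAT. All 4 are RefSeq sequences of GRCm38.p6, printed 5′ to 3′ on the gene's strand. They run from 250 bases before to 50 bases after the start, with motif matches in capitals.
Psmb5, chr14:54617946-54618245, minus strand: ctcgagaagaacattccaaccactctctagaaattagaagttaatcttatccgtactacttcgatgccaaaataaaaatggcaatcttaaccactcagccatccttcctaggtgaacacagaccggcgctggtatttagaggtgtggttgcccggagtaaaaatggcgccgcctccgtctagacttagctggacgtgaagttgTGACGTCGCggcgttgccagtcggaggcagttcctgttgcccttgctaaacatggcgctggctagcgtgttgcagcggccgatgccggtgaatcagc
Psmb6, chr11:70525107-70525406, plus strand: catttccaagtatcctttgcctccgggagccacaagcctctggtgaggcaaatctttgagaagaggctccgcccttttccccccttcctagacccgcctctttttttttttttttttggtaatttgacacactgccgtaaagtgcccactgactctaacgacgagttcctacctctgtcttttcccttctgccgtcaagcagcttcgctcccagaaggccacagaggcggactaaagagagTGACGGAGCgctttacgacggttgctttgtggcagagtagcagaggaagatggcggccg
Psmb3, chr11:97703184-97703483, plus strand: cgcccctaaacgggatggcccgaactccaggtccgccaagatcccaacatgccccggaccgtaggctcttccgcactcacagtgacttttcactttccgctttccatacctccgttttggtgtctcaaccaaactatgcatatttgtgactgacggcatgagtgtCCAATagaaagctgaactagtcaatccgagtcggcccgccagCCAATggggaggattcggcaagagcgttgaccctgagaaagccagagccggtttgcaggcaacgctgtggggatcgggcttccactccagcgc
Psmd14, chr2:61711444-61711743, plus strand: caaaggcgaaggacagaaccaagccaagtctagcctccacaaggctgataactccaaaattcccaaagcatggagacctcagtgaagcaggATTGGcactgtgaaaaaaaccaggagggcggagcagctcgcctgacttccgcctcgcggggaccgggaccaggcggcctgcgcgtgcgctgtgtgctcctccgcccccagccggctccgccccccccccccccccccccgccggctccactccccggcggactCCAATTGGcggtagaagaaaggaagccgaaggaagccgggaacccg

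TGACNNNGC is a form of the element bound by Nfe2l1 with small Maf proteins, and CCAAT is the element bound by NF-Y. Both were searched on both strands in the 300 bases of each promoter entry. An entry was found for 29 of the 35 genes, and where a gene had 2 entries a match in either counted. Psmb1, Psmb2, Psmb7, Psmc3, Psmd3 and Psmd7 had no entry and were not searched. No promoter of these genes held both motifs, but matches of 1 motif may overlap, as the CCAAT matches on opposite strands near the start of Psmd14 do. TGACNNNGC was held by 5 of the 29 (17.2%), namely Psmb5, Psmb6, Psmc6, Psmd9 and Psmd12, against 16.9% of the tested genes with a promoter. CCAAT was held by 12 of the 29 (41.4%), against 42.7%. By class, 6 of 11 core promoters (54.5%) and 6 of 18 regulator promoters (33.3%) held CCAAT. Over all 29, the proteasome promoters thus held each motif about as often as promoters at large did, and a match is a description, not a bound site.

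The beta subunits without a catalytic site line the same rings. Psmb3 had the smallest unadjusted limma p of all 35 genes (0.0168). It stood at 10.36, 10.35 and 10.09 in controls and at 10.82, 10.45 and 10.54 with EFNA3. Every EFNA3 library was above every control, with Control replicate 3 the lowest. The difference was 0.34 (SE 0.11), or 0.23 without EFNA3 replicate 1, and 33.1% of the 75-base stretches of its transcript also occur in other annotated genes. Psmb2 had the smallest difference among the core genes, with 10.88, 10.87 and 10.96 in controls and 11.34, 11.01 and 10.88 with EFNA3. The lowest EFNA3 library lay among the controls, and the difference of 0.17 (SE 0.11) became 0.04 and 0.27 with EFNA3 replicates 1 and 3 left out in turn. The others, Psmb1 and Psmb4, differed by 0.26 (SE 0.11) and 0.24 (SE 0.13).

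The alpha subunits form the gated outer rings, and all 7 were higher with EFNA3, with a median difference of 0.26, beside 0.24 for the 7 beta subunits. Psma3 stood at 9.90, 9.94 and 9.74 in controls and at 10.36, 9.96 and 10.09 with EFNA3. The groups did not overlap, but EFNA3 replicate 2 was barely above the highest control. The difference was 0.27 (SE 0.11), or 0.17 without EFNA3 replicate 1. Psma7 stood at 11.87, 11.81 and 11.87 in controls and at 12.35, 11.94 and 11.90 with EFNA3, a difference of 0.21 (SE 0.11), or 0.07 without EFNA3 replicate 1. The remaining alpha genes Psma1, Psma2, Psma4 and Psma6 had differences of 0.22 to 0.30, each with no overlap between groups. That made 6 of 7 alpha genes without overlap, beside 8.53% of all tested genes.

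Psma5 was singled out after its values were seen, as the core gene with the widest spread. Its log2 values were 9.99, 9.88 and 9.08 in controls and 10.49, 9.78 and 10.29 with EFNA3. Control replicate 3 lay far below the other controls, and EFNA3 replicate 2 lay below 2 of the controls, so the groups overlapped. The difference of 0.53 (SE 0.25) had a 95% interval of -0.03 to 1.09 and was 0.25 without Control replicate 3. Psma5 shares 39.8% of its 75-base stretches with other annotated genes, most with Gm8394, which RefSeq lists as a synonym of the copy Psma5-ps. On the linear scale the copy was at 545, 486 and 647 in controls and 796, 574 and 538 with EFNA3. In Control replicate 3 the copy was listed above Psma5 itself (541), the only library where it was. Summing both on the linear scale gave a log2 difference of 0.38, an alternative chosen after the data were seen.

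In the 19S base, the 6 ATPases of the Psmc series form the ring that pulls the substrate in, and all 6 were higher with EFNA3, within the narrow range of 0.14 to 0.21. Psmc3, which had the smallest unadjusted limma p among them and the highest level per transcript length of the regulator genes, stood at 12.17, 12.17 and 12.22 in controls. With EFNA3 it stood at 12.57, 12.31 and 12.22. The groups did not overlap, although EFNA3 replicate 3 was barely above the highest control. The difference was 0.18 (SE 0.09), or 0.08 without EFNA3 replicate 1. In 3 of the 6 ATPases (Psmc1, Psmc3 and Psmc5) the groups did not overlap, beside 8.53% of all tested genes.

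The large base scaffolds Psmd1 and Psmd2, which dock ubiquitin shuttles and hold the base together, differed least. Psmd1 stood at 12.26, 12.23 and 12.20 in controls and at 12.18, 12.24 and 12.23 with EFNA3. The groups overlapped throughout, EFNA3 replicate 1 was the lowest library, and the difference was -0.01 (SE 0.06) with a 95% interval of -0.15 to 0.13. Its sign was not stable, at 0.00 with either Control replicate 1 or EFNA3 replicate 1 left out and at -0.03 and -0.02 with Control replicate 3 or EFNA3 replicate 2 left out. Psmd2 stood at 12.97, 12.85 and 12.86 in controls and at 12.90, 12.94 and 12.94 with EFNA3. Control replicate 1 was the highest library, and the difference of 0.04 (SE 0.07) became 0.07, 0.01 and 0.02 with Control replicates 1, 2 and 3 left out in turn. The ubiquitin receptor Psmd4 stood at 11.74, 11.71 and 11.84 in controls and at 12.26, 11.87 and 11.91 with EFNA3. The groups did not overlap, and the difference of 0.25 (SE 0.11) was 0.13 without EFNA3 replicate 1.

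In the lid, all 8 genes had a higher mean with EFNA3, with a median difference of 0.17, or 0.06 without EFNA3 replicate 1. In 4 of them the groups did not overlap, beside 8.53% of all tested genes. Psmd14, the deubiquitinase that cuts the ubiquitin chain off the substrate, stood at 11.27, 11.15 and 11.28 in controls and at 11.64, 11.29 and 11.32 with EFNA3. Its groups did not overlap, and its difference of 0.18 (SE 0.10) was 0.07 without EFNA3 replicate 1. Psmd7, its partner in the lid, stood at 11.99, 11.94 and 12.07 in controls and at 12.39, 12.10 and 12.15 with EFNA3. These groups did not overlap either, with a difference of 0.21 (SE 0.09), or 0.12 without EFNA3 replicate 1. Psmd13 stood at 11.06, 11.08 and 11.23 in controls and at 11.68, 11.24 and 11.22 with EFNA3. Control replicate 3 reached the range of the EFNA3 libraries, and the difference of 0.26 (SE 0.12) was 0.11 without EFNA3 replicate 1; 17.2% of its transcript overlaps Sirt3 on the opposite strand. Psmd11, a lid subunit known as a target of regulation by phosphorylation, stood at 11.32, 11.34 and 11.35 in controls and at 11.44, 11.46 and 11.34 with EFNA3. EFNA3 replicate 3 lay among the controls, and the difference was 0.08 (SE 0.07), or 0.11 without EFNA3 replicate 3.

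Among the assembly chaperones of the base, Psmd5, Psmd9 and Psmd10 had differences of 0.06 (SE 0.09), 0.18 (SE 0.12) and 0.23 (SE 0.12). Only Psmd10 had no overlap between its groups, with controls of 10.20 to 10.22 and EFNA3 libraries of 10.26 to 10.72. The recombination factor gene Psmc3ip, which is no proteasome subunit, stood at 6.31, 6.09 and 6.27 in controls and at 6.49, 6.42 and 6.92 with EFNA3. EFNA3 replicate 3, not replicate 1, was its highest library, and 29.8% of its transcript overlaps Mlx on the opposite strand. Its difference of 0.39 (SE 0.18) was the highest among the genes counted with the regulator, and 0.23 without EFNA3 replicate 3. With structural subunits only, the regulator median was 0.18 and the gap between core and regulator means was 0.12.

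Core and regulator transcripts differ in length, and length moved with the difference. The median transcript length was 1162.5 nt for core genes, 1636 nt for regulator genes and 2699 nt for all tested genes. Over all tested genes with a known length (15972), the difference with EFNA3 had a Spearman correlation of -0.45 with transcript length, and over the 35 proteasome genes -0.51. Genes share their libraries, so these are descriptions. Over the 21 regulator genes the correlation was -0.67 and over the 14 core genes 0.25. By library, the correlation over all genes was -0.52 for EFNA3 replicate 1 against the control mean, -0.25 for EFNA3 replicate 2 and -0.18 for EFNA3 replicate 3. The 4 longest regulator transcripts, those of Psmd5, Psmd1, Psmd2 and Psmd11, had differences of -0.01 to 0.08.

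After the dependence on transcript length and GC share had been taken out of every library, the median difference was 0.15 over core genes and 0.13 over regulator genes. All 35 genes were then higher, with Psmd1 at 0.00, and the median of all genes was 0.02. Every EFNA3 library lay above every control in 15 of the 35 genes, 7 core (3 of them alpha genes) and 8 regulator. Over all genes with a length this held for 1487 of 15972. The gap between core and regulator means was 0.06 in place of 0.11. With the correction and without EFNA3 replicate 1, the medians were 0.06 and 0.06, the gap was 0.02 and 31 of 35 genes were higher. The gap in single libraries was taken from the correction over all 6 libraries. It was 0.02 and 0.02 for EFNA3 replicates 2 and 3, within the -0.06 to 0.04 of the controls. For EFNA3 replicate 1 it was 0.13, above all controls. Whether length or GC share caused the differences was not tested.

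**Figure D3:**
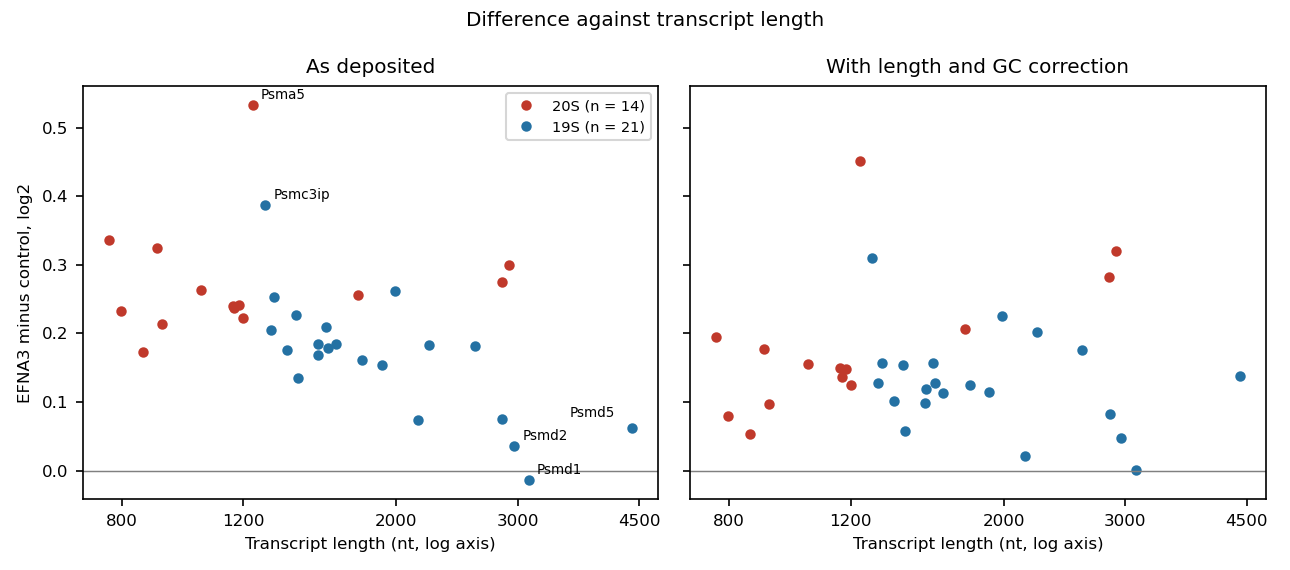
Each point is 1 gene, with its transcript length in nt on a log axis (horizontal) and its EFNA3 minus control log2 difference (vertical), as deposited (left) and after the correction for length and GC share (right); core genes are red and regulator genes are blue. On the left the long regulator transcripts lie near 0 and the core genes between 0.17 and 0.34, apart from Psma5 at 0.53; on the right core and regulator genes overlap more, with medians of 0.15 and 0.13.

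Levels of proteasome genes were compared between genes only per length, as the log2 value minus log2 of the coding length in kb. The marker levels given earlier were not taken per length. Coding length was used because some untranslated ends are long: Psma2 and Psma3 have transcripts of 2911 and 2846 nt around coding lengths of 702 and 765 nt. A coding length was found for 13049 of the 16394 tested genes. On this scale the median control level was 11.79 for core genes and 11.14 for regulator genes, a 1.57-fold gap, while the median of all genes with a coding length was 9.10. With EFNA3 the gap was 1.66-fold; by library it was 1.62-, 1.55- and 1.56-fold in controls and 1.79-, 1.62- and 1.57-fold with EFNA3. Apart from EFNA3 replicate 1, the libraries of both groups had gaps between 1.55- and 1.62-fold. Transcript length had been planned as the main measure, with coding length as an alternative. Per transcript length the gap was smaller, at 1.29-fold in controls and 1.35-fold with EFNA3. The scales part where untranslated ends are long, as Psma2 stood at 12.06 per coding length and 10.01 per transcript length in controls.

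Within each class the levels spread more than the classes lay apart. Psmb1 had the highest control level per coding length of all 35, at 12.61, followed by Psma6 and Psma7, both at 12.28 and indistinguishable within their SDs of 0.06 and 0.04 (n = 3). The lowest core genes were Psmb5 (10.56), Psma3 (10.25) and Psma5 (10.12), so core genes spanned a 5.63-fold range. The 17 structural regulator genes spanned only a 2.53-fold range, from Psmd7 at 12.06 to Psmd1 at 10.71. The chaperone genes Psmd5 and Psmd9 lay below these, at 10.20 and 10.19, and Psmc3ip was far lower, at 6.84. In the ranking of all genes per coding length, the median core gene was at percentile 91.3 and the median regulator gene at percentile 84.8. Per transcript length the order and spans changed. Psma7 (11.98), Psma6 (11.78) and Psmb6 (11.63) were then the highest in controls, with Psmb1 at 11.32. Core genes ran from 8.35 (Psma3) to 11.98, and structural regulator genes from 9.83 (Psmd11) to 11.47 (Psmc3). The median percentiles were then 95.8 for core and 94.05 for regulator genes. These are RNA levels; protein was not measured. The core genes lowest per coding length, Psma3, Psma5 and Psmb5, share 21.3%, 39.8% and 40.0% of their 75-base stretches with other annotated genes. The sources used here do not say how reads with several matches were counted.

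**Figure D4:**
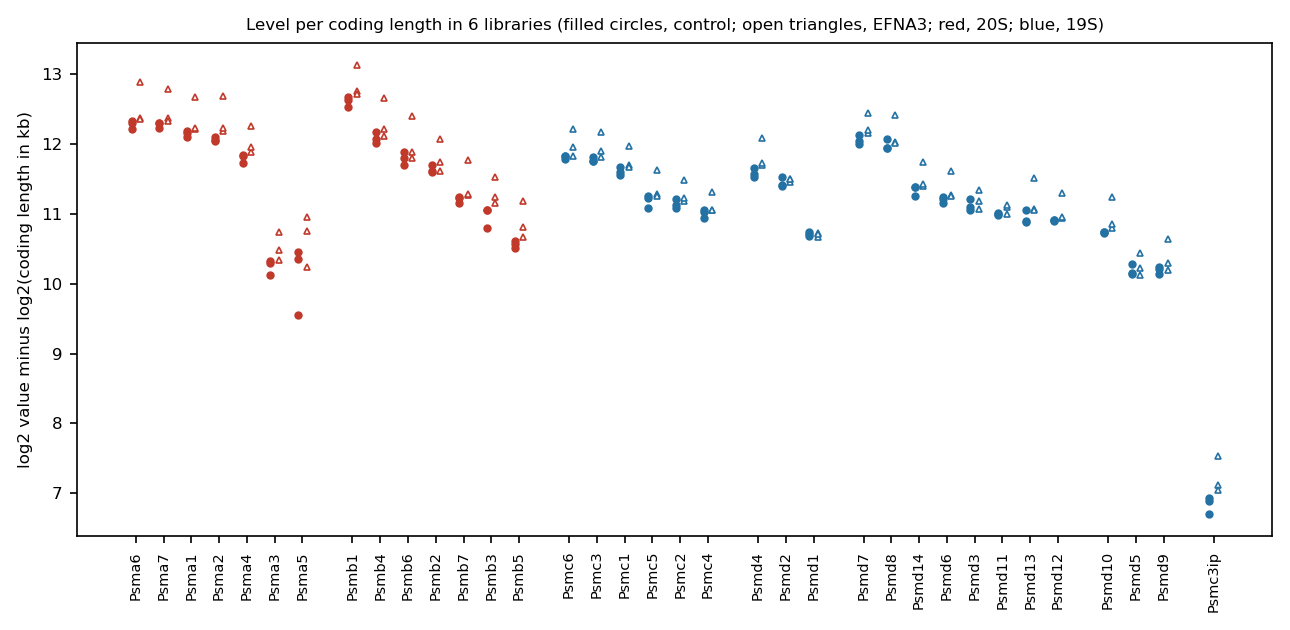
Vertical axis: log2 value minus log2 of the coding length in kb, for each gene (horizontal axis, ordered by control level within each role) in 3 control libraries (filled circles) and 3 EFNA3 libraries (open triangles); core genes are red, regulator genes blue. In controls Psmb1 is the highest at 12.61, Psma3 and Psma5 lie well below the other alpha genes at 10.25 and 10.12, and Psmc3ip lies far below all others at 6.84.

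The catalytic core subunits are replaced by Psmb8, Psmb9 and Psmb10 in the immunoproteasome, which is induced by interferons. Per coding length, constitutive Psmb6 exceeded Psmb9 by 21.4-fold in controls, Psmb7 exceeded Psmb10 by 6.32-fold, and Psmb5 exceeded Psmb8 by 3.61-fold. With EFNA3 these ratios were 20.6-, 5.98- and 4.25-fold. Per transcript length, the control log2 levels were 11.63 for Psmb6 and 6.33 for Psmb9. They were 10.72 for Psmb7 and 7.87 for Psmb10, and 10.38 for Psmb5 and 7.73 for Psmb8. The size of the ratios thus depended on the length measure. Of the 75-base stretches, 0.0% in Psmb6, 24.1% in Psmb7 and 40.0% in Psmb5 also occur in other annotated genes. Psmb8, Psmb9 and Psmb10 were not searched for such stretches. For Psmb7 the other gene was Nek6, which overlaps it on the opposite strand. How reads with several matches or from overlapping genes were counted is unknown, and so is the strand setting. The size and order of the ratios may depend on these. Per coding length, the log2 ratio of Psmb5 to Psmb8 was 1.77, 1.97 and 1.82 in controls and 2.16, 2.22 and 1.88 with EFNA3. These groups overlapped, and the shift was 0.23 (two-sided exact permutation p = 0.2, over 3 pairs compared; 3 libraries against 3 cannot go below 0.1). For the other pairs the shift was -0.05 (exact p = 0.6) and -0.08 (exact p = 0.3). After adjustment over the 3 pairs none could pass.

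Most of the 35 genes varied together over the 6 libraries, with 26 of them above a correlation of 0.9 with the mean of the others. Over the 6 libraries, the median correlation of a gene with the mean of the other 34 was 0.97, a description over few points that EFNA3 replicate 1 dominates. Without that library the median was 0.79 and 8 of the 35 genes were above 0.9. Psmd5 (-0.017), Psmd1 (0.085) and Psmd3 (0.11) were then the lowest. The same correlation was not computed for other genes. Psmd1 (-0.65), Psmd2 (0.13) and Psmc3ip (0.36) followed the rest least over the 6 libraries.

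Factors that build and cap the particle were compared with the subunits. Of 4 regulator subunits and associated enzymes outside the symbol series, all had a higher mean with EFNA3, with a median difference of 0.15; without EFNA3 replicate 1 it was 0.07, with 3 of 4 higher. Sem1, the smallest lid subunit, stood at 11.16, 11.11 and 11.002 in controls and at 11.96, 11.37 and 11.45 with EFNA3. The groups were clearly separate, and the difference was 0.50 (SE 0.14), or 0.32 without EFNA3 replicate 1. The 8 assembly chaperones, 3 of which are Psmd5, Psmd9 and Psmd10, had a median difference of 0.20 and were all higher; without EFNA3 replicate 1 it was 0.07, with 7 of 8 higher. Psmg4, a chaperone of the alpha ring, stood at 6.76, 6.64 and 6.73 in controls and at 7.49, 7.36 and 7.08 with EFNA3. This too was a clear separation, by 0.60 (SE 0.15), or 0.51 without EFNA3 replicate 1. Pomp, which guides beta ring assembly, differed by 0.27 (SE 0.12), or 0.11 without EFNA3 replicate 1. Neither list had a gene past limma's adjusted test.

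The activators and the inhibitor did not follow the core as a list, with a median difference of 0.02 and 3 of 5 higher. Psme1 and Psme2, which form the interferon-induced cap, differed by 0.18 (SE 0.10) and 0.57 (SE 0.26), and Psme4, an alternative cap of the core, by -0.17 (SE 0.10). Without EFNA3 replicate 1, Psme1 was at 0.06, Psme2 at 0.40 and Psme4 at -0.06. With the correction for length and GC share they were at 0.06, 0.45 and -0.02. In the 3 immunoproteasome genes the median difference was 0.28, with Psmb10 at 0.32 (SE 0.12); without EFNA3 replicate 1 these were 0.19 and 0.20.

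Genes upstream of the proteasome stood close to 0. In 12 genes of Nfe2l1 activation and proteasome gene regulation the median difference was 0.03, with 8 higher and none past the adjusted test. Nfe2l1 stood at 13.97, 13.93 and 13.99 in controls and at 13.82, 13.98 and 13.94 with EFNA3. The groups overlapped, and the difference was -0.05 (SE 0.07). Its relative Nfe2l2 differed by 0.06 (SE 0.06), and Ddi2, the protease that releases active Nfe2l1, by -0.26 (SE 0.10). Ddi2 was at -0.05 with the correction for length and GC share and at -0.16 without EFNA3 replicate 1. The 6 ubiquitin precursor and activation genes had a median difference of 0.09, with 4 higher and Uba6, an E1 enzyme, at -0.31 (SE 0.14). Uba6 was at -0.13 with the correction and at -0.14 without EFNA3 replicate 1. The 13 ubiquitin shuttles and Vcp cofactors had a median difference of 0.03, with 10 higher; Txnl1, which binds the 19S regulator, was at 0.18 (SE 0.08), or 0.10 without EFNA3 replicate 1.

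Other large complexes gave a scale for these numbers. The lid is related in structure to the COP9 signalosome and to eIF3, the translation initiation complex. The median difference was 0.08 in 9 COP9 genes (8 higher) and 0.16 in 13 eIF3 genes (11 higher). In the 8 genes of TRiC, the chaperonin that folds actin and tubulin, it was 0.17, with 8 higher. The groups did not overlap in 2 COP9, 6 eIF3 and 6 TRiC genes, beside 8.53% of all tested genes. With the correction for length and GC share these counts were 2, 2 and 7, beside 1487 of 15972 genes. TRiC and eIF3 had medians near the 0.18 of the 19S regulator, and that of the 20S core was 0.25; these differences between lists were not tested. Without EFNA3 replicate 1 the medians were 0.02, 0.04 and 0.08 for COP9, eIF3 and TRiC, beside 0.11 for the core and 0.07 for the regulator. With the correction for length and GC share, TRiC at 0.15 was level with the core at 0.15, and eIF3 was at 0.08 and COP9 at 0.05. With the correction and without EFNA3 replicate 1, TRiC was at 0.08 and the core at 0.06, so the order of core and TRiC depended on the processing.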

How the data were processed

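Libraries were prepared with a kit for stranded mRNA, as the labels' protocols state. The submitters' processing notes name Trim Galore, Subread, featureCounts and build mm39; the sources used here give no versions, annotation or strand setting. The values the authors deposited have no stated unit, run from -0.79 to 18.11 and are not whole, and were taken as log2 values. The sorted columns of the deposited log2 values differed by at most 0.00302, so a shift of all genes at once cannot be seen.

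Columns were assigned by the description labels. Genes at 3.32 or more (linear value 10) in at least 3 of 6 libraries were fitted with limma 3.58.1 in R 4.3.3 (mean-variance trend, no block, two-sided, Benjamini-Hochberg threshold 0.05), a fit tested on simulated data. Standard errors are limma's. The members and lists were chosen with earlier results of these data known, so lists are described and not tested.

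Named with values were the catalytic genes, Psmd14 and Psmd11; in core and regulator the 3 genes with the smallest p, the 2 most negative, and the highest and lowest per length; of other lists up to 3 by smallest p, with Nfe2l1 and Nfe2l2. Any other gene given with values was chosen after they were seen. Each gene's principal transcript gave its transcript length, coding length and GC share, from GENCODE M21 (GRCm38), matched by symbol. A transcript length was found for 97.4% of the 16394 tested genes, a coding length for 13049 of them, and both for 35 of 35 members; coding length was planned from protein sequences, and the GENCODE coding length was used instead. For the correction, a spline (5 df) in length and 1 in GC share were subtracted from each library. Stretches of 75 bases were compared between GENCODE transcripts of different genes, on both strands. Promoters were RefSeq's, on GRCm38.p6, not the build of the files. Alternatives covered scale, filter, scaling, variance model, library weights, blocks and left-out libraries. Figures were drawn with matplotlib 3.10.9.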

Additional observations from a re-analysis of the deposited data

How the results depend on the processing

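The adjusted limma test called no proteasome gene under any setting but 1. That was a replicate block by description numbers, where Control replicate 2 and EFNA3 replicate 2 stand alone in their blocks: 71 genes passed, and 1 of them, Psma5, is a proteasome gene (difference 0.85, adjusted p = 0.0083). With a replicate block by title numbers, 0 passed and 8 of the 35 had an unadjusted p under 0.05, as without the block. Deviations of libraries with the same title number correlated at -0.11, 0.03 and -0.32, and no control library correlated best with its own number, so the numbers were not taken to pair the samples. Leaving out each library in turn gave a core median of 0.11 to 0.34, a regulator median of 0.0676 to 0.23, a gap between their means of 0.05 to 0.14, and 0 genes past the adjusted test; each low end is without EFNA3 replicate 1. The same settings gave -0.0279 to 0.0021 for Psmd1, above 0 without Control replicate 1 (0.0019) or EFNA3 replicate 1 (0.0021). With the length and GC correction Psmd1 was at 0.0009. With the correction and without EFNA3 replicate 1, the core median was 0.0618, the regulator median 0.0591 and the gap 0.0209; Psmb2 was at -0.0135, Psmb6 at -0.0172 and Psmd1 at 0.0111. The gap in level, 0.37 on the log2 scale per transcript length, was 0.65 per coding length and 0.29 over structural subunits. An unadjusted p under 0.05 was found for 2 of the 35 genes without the mean-variance trend (5.19% of all tested genes, in either direction) and for 4 with the block by description numbers (5.62%). The cause of these changes was not tested. The other 355 combinations of result and setting kept direction and side of the threshold or, for values with no test, moved by less than the spread between replicates. Among them, library weights lowered the core median to 0.12, the regulator median to 0.08 and the gap between their means to 0.06. For these values the spread was an SD of 0.18, 0.11 and 0.08. EFNA3 replicate 1 adds to that spread, so this rule is lenient towards changes that lower the part of that library. Depth is unknown, so what it limits cannot be given.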

Other observations

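Psma5 shared its low libraries with other genes of the lists. Psme2, a subunit of the interferon-induced cap, stood at 8.76, 8.68 and 7.96 in controls and at 9.37, 8.48 and 9.25 with EFNA3. The ubiquitin and ribosomal fusion gene Rps27a stood at 8.01, 8.34 and 7.53 in controls and at 8.55, 7.68 and 8.30 with EFNA3. In all 3 genes Control replicate 3 was the lowest library and EFNA3 replicate 2 lay below Control replicates 1 and 2, an order that most proteasome genes did not show. They were picked after their values were seen, and no cause was tested.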
